A study of Mus musculus with 6 samples.

Results

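Fibrillar collagens and collagen VI were followed as 10 genes in RNA of mouse endothelial cells (ECs). The genes were taken by symbol from the table of loci that carry an Ensembl transcript, 10 of 53530 named loci. The row of 8 members bore the symbol alone. *Col3a1* shared its row with a microRNA gene, *Gm47302*, and *Col1a2* with *Gm43921*, an unclassified transcript, both on the same strand, so these counts include any reads of those genes.

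The study compared 3 *Stk11* ec-/- libraries with 3 WT libraries from C57BL/6 mice aged 2 months. *Stk11* encodes Lkb1, a serine/threonine kinase and tumor suppressor. The *Stk11* ec-/- mice carry *Stk11* fl/fl and *Cdh5*-Cre, a recombinase driven by the promoter of VE-cadherin, which removes part of *Stk11* in ECs and can also act in blood cells that descend from them. Whether the WT mice carried the floxed or Cre alleles, from which tissue the ECs came and whether each library was 1 mouse are not given in the sources used here. A p-value here therefore sets the genotypes against library-to-library spread, which may not measure the spread between mice. That spread exceeded sampling noise in both groups. Total counts were 37114459 to 55545899 in *Stk11* ec-/- and 22179567 to 52795240 in WT libraries. *Stk11* stood at 60.9, 85.0 and 81.9 CPM, counts scaled to library size after TMM normalization, in *Stk11* ec-/- libraries, against 69.3, 92.0 and 76.0 CPM in WT libraries, so its summed count did not separate the groups. *Xist*, a transcript of the inactive X chromosome, was at 267 to 464 CPM in *Stk11* ec-/- and at 0.598 to 1.18 CPM in WT libraries, and the Y-linked *Kdm5d* at 0 to 0.171 CPM in *Stk11* ec-/- and at 8.67 to 12.4 CPM in WT libraries. Genotype and sex therefore cannot be told apart in any value given here.

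Fibrillar collagens are long triple helices that assemble into the banded fibers of connective tissue. Collagen I is built of *Col1a1* and *Col1a2* chains and collagen III of *Col3a1* chains, while the collagen V chains *Col5a1*, *Col5a2* and *Col5a3* enter the same fibrils and limit their diameter. Collagen VI joins 1 chain each of *Col6a1*, *Col6a2* and *Col6a3* into beaded microfibrils near cells, and collagen XII (*Col12a1*) sits on fibril surfaces. Fibroblasts and mural cells are the usual main sources of collagens I and III, and quiescent ECs mostly make basement membrane collagen IV.

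The members lie in the deposited table, in GRCm38 positions, on chromosome 11 (*Col1a1*, 94936224 to 94953042, plus strand), chromosome 6 (*Col1a2*, 4504814 to 4541544, plus strand), chromosome 2 (*Col5a1*, 27886425 to 28039514, plus strand) and chromosome 9 (*Col5a3*, 20770050 to 20815067, and *Col12a1*, 79598985 to 79718831, both minus strand). Chromosome 1 holds *Col3a1* (45311538 to 45349706, plus strand), *Col5a2* (45374321 to 45503282, minus strand) and *Col6a3* (90765923 to 90843971, minus strand). Chromosome 10 holds *Col6a2* (76595762 to 76623630) and *Col6a1* (76708792 to 76726168), both on the minus strand. In 9 members the start and end equalled those of the GENCODE M21 gene, and *Col12a1* began 6 bases earlier. *Col3a1* and *Col5a2* converge with 24.6 kb between them, and *Col6a2* and *Col6a1* lie 85.2 kb apart, with 0 protein-coding genes between either pair. GENCODE places other genes on the same strand inside *Col5a2* and *Col6a3*, and on the opposite strand inside *Col5a1*, *Col5a3* and *Col12a1*. Whether counting used strand is not given in the sources used here, so reads of these genes could not be told apart from those of the members.

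RefSeq start regions (GRCm38.p6) were on hand for *Col1a2*, *Col3a1*, *Col5a1*, *Col5a3*, *Col6a1*, *Col6a2* and *Col6a3*, 7 of the 10 members. The 250 bases before the start site are shown for *Col1a2* and *Col3a1*, which had some of the widest ranges among the *Stk11* ec-/- libraries, and for the 3 chains of collagen VI, of which *Col6a3* differed in profile from the other two. They read 5′ to 3′ on the gene's strand, from chr6:4505368-4505617 (*Col1a2*, plus strand), chr1:45311288-45311537 (*Col3a1*, plus strand), chr10:76726045-76726294 (*Col6a1*, minus strand), chr10:76623631-76623880 (*Col6a2*, minus strand) and chr1:90843972-90844221 (*Col6a3*, minus strand). Capitals mark the letters of a TATA box (TATAAA), of a CAAT box (CCAAT) or of a GC box (GGGCGG), or the reverse complement of one of them, and no match overlapped another. The RefSeq starts used for *Col1a2* and *Col6a1* lie inside their loci of the table.
Col1a2: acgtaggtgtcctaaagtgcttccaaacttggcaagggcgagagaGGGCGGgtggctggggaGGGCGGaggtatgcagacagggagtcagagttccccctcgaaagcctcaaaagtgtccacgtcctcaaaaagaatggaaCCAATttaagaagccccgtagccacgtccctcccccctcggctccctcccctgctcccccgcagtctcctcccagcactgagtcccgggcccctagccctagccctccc
Col3a1: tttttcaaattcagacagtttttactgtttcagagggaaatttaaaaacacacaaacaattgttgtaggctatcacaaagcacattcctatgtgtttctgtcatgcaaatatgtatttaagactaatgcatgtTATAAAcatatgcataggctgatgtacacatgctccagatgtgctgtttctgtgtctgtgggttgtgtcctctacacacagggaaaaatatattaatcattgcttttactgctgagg
Col6a1: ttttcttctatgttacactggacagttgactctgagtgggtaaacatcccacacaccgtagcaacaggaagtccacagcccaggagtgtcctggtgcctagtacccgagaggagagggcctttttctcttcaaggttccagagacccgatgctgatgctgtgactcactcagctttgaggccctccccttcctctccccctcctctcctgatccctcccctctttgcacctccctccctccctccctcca
Col6a2: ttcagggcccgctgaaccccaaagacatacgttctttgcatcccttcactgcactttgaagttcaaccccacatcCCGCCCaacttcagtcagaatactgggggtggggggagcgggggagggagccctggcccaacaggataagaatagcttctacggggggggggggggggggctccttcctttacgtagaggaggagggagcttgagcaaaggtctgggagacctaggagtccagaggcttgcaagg
Col6a3: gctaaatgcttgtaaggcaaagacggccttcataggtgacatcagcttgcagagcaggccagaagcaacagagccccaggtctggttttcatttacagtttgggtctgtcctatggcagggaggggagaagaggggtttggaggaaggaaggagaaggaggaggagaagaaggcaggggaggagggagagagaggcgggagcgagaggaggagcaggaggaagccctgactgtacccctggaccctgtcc
On either strand, TATAAA was in 1 of the 7 members (*Col3a1*, first base at −117 from the start site) and in 12.4% of 32851 RefSeq windows of the same length. CCAAT was in 2 members (*Col1a2* at −109, *Col5a3* at −122) and in 33.8% of windows. GGGCGG was in 4 members, with matches at −205 and −188 in *Col1a2* and at −175 in the *Col6a2* window shown, and in 32.7% of windows. *Col6a2* has another RefSeq start, at 76623404 inside its locus. The window before that start, not shown, was 64.4% G and C. It held GGGCGG letters on the opposite strand at −67, −15 and −11. The windows of *Col6a1* and *Col6a3* held none of the 3 motifs. In the windows shown, G and C made up 35.2% for *Col3a1*, 62.0% for *Col1a2* and 56.0%, 59.2% and 57.2% for *Col6a1*, *Col6a2* and *Col6a3*. The median over all windows was 52.4%. Matches are letters in a window and were not tested as binding sites.

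Collagen transcripts were abundant in some libraries of either genotype and scarce in others. The 10 members together gave 1107, 1341 and 16280 CPM in *Stk11* ec-/- libraries, against 4809, 2912 and 10150 CPM in WT libraries. *Stk11* ec-/- replicate 3 was the highest of all 6 libraries and *Stk11* ec-/- replicates 1 and 2 were the lowest, so the groups overlapped. The members took 0.121%, 0.141% and 1.38% of all counts in *Stk11* ec-/- libraries and 0.48%, 0.224% and 0.739% in WT libraries. Mean sums were 6243 ± 8693 CPM in *Stk11* ec-/- and 5957 ± 3753 CPM in WT libraries (SD, n = 3 each). In bulk RNA, more cells of a type and more RNA per cell cannot be told apart.

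**Figure D1:**
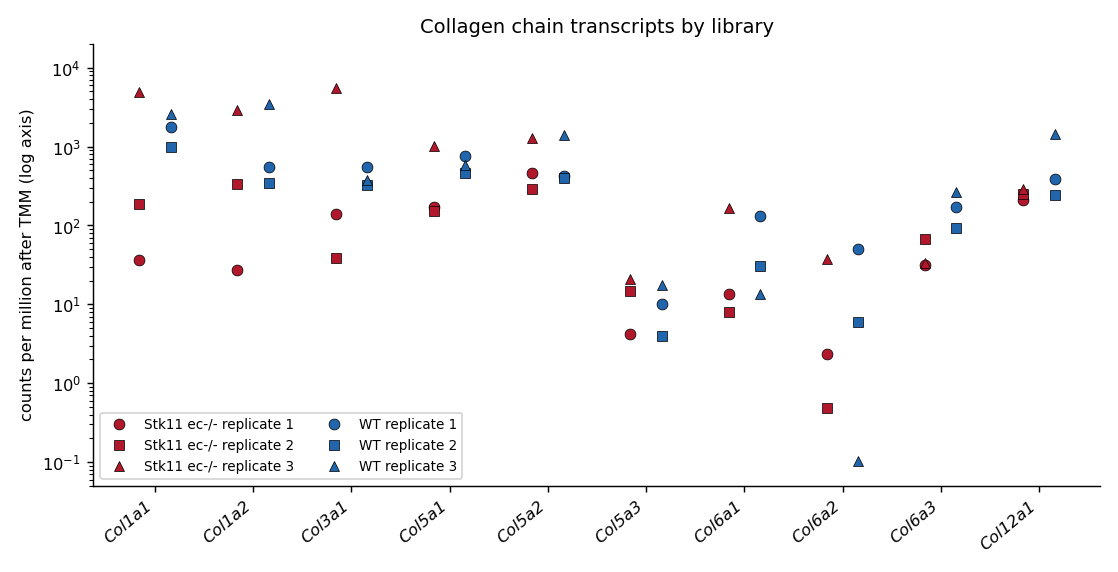
CPM after TMM normalization (log axis) of each collagen chain in the 3 *Stk11* ec-/- libraries (red) and the 3 WT libraries (blue), with the symbol shape giving the replicate number. *Stk11* ec-/- replicate 3 stood at 4931 CPM for *Col1a1*, where replicate 1 had 37.0 CPM, and *Col6a3* was the member without overlap between the groups.

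With all libraries, 0 of the 10 members were higher and 0 lower in *Stk11* ec-/- cells at an adjusted p under 0.05 (edgeR quasi-likelihood test with Benjamini-Hochberg adjustment over 17396 genes). Over all genes the same test called 0.046% higher and 0.0287% lower. By unadjusted p under 0.05, 0 members were higher, beside 4.36% of all genes, and 1 was lower (*Col6a3*), beside 2.97% of all genes. *Col6a3* was also the 1 member whose groups did not overlap, all 3 *Stk11* ec-/- libraries lying below all WT libraries, a pattern found in 6.59% of all genes. The median log2 fold change (*Stk11* ec-/- over WT) was −0.28 over the members and 0.02 over all genes, and 3 of 10 members were above 0, where 51.5% of all genes were. DESeq2 called 0 members higher and 1 lower (*Col6a3*) at an adjusted p under 0.05, where it called 0.638% of all genes higher and 0.604% lower, and limma on log2(FPKM + 1) called 0 and 0, where it called 0.0747% of all genes higher and 0.0345% lower.

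The spread within a genotype was wider than for most genes. The median SD of log2 CPM over 3 libraries was 1.92 for the members and 0.44 for all genes in *Stk11* ec-/- cells, and 1.02 for the members and 0.45 for all genes in WT cells. Of the members, 5 of 10 had their highest level in *Stk11* ec-/- replicate 3, as did 15% of all genes, and 4 in WT replicate 3, as did 19.5% of all genes. These shares are descriptions and were not tested.

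The collagen I chains showed the widest range in *Stk11* ec-/- cells beside *Col3a1*. *Col1a1*, the main chain of collagen I, was at 37.0, 188 and 4931 CPM in *Stk11* ec-/- libraries, against 1775, 991 and 2559 CPM in WT libraries. Of the *Stk11* ec-/- libraries 2 were below and 1 was above all WT libraries, and the highest was 133-fold over the lowest, compared with 2.58-fold among WT libraries. The log2 fold change was −0.05 ± 1.42 (SE, n = 3 each, adjusted p = 0.996). *Col1a2*, which forms the heterotrimer with *Col1a1*, was at 26.9, 334 and 2912 CPM in *Stk11* ec-/- libraries, against 555, 348 and 3489 CPM in WT libraries. *Stk11* ec-/- replicate 3 lay between WT libraries and the other 2 lay below them, the second by a small margin. For *Col1a2* the log2 fold change was −0.42 ± 1.46 (SE, adjusted p = 0.956).

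*Col3a1*, the chain of collagen III, was at 138, 38.5 and 5609 CPM in *Stk11* ec-/- libraries, against 551, 329 and 380 CPM in WT libraries. The WT libraries lay within 1.68-fold of each other, while *Stk11* ec-/- replicate 3 was 146-fold above replicate 2 and above all WT libraries, and the other 2 were below all of them. The log2 fold change was 2.20 ± 1.53 (SE, adjusted p = 0.769), the highest of the 10 members, and was −2.24 without *Stk11* ec-/- replicate 3, so its sign rested on that library. DESeq2 gave no adjusted p for *Col3a1*.

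The collagen V chains varied less. *Col5a1* was at 172, 154 and 1010 CPM in *Stk11* ec-/- libraries, against 762, 463 and 579 CPM in WT libraries, with the same order of 2 libraries below and 1 above WT. For *Col5a1* the log2 fold change was −0.43 ± 0.73 (SE, adjusted p = 0.911). *Col5a2*, its partner in the main collagen V trimer, was at 468, 286 and 1271 CPM in *Stk11* ec-/- libraries, against 419, 404 and 1403 CPM in WT libraries, and had a high library 3 in both genotypes. The difference for *Col5a2* on the log2 scale was −0.14 ± 0.70 (SE, adjusted p = 0.973). *Col5a3*, a rarer chain of the same collagen, was low throughout, at 4.19, 15 and 20.7 CPM in *Stk11* ec-/- libraries, against 10.1, 3.93 and 17.5 CPM in WT libraries. The genotypes overlapped for *Col5a3*, and the difference was 0.33 ± 0.70 on the log2 scale (SE, adjusted p = 0.930).

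Of the collagen VI chains, *Col6a3* had another profile than *Col6a1* and *Col6a2*. *Col6a3*, the largest chain of the trimer, was at 31.5, 67.5 and 33.5 CPM in *Stk11* ec-/- libraries, against 170, 94.0 and 264 CPM in WT libraries. It was thus lower in 3 of 3 *Stk11* ec-/- libraries, with means of 44.2 ± 20.2 CPM in *Stk11* ec-/- and 176 ± 85.0 CPM in WT (SD, n = 3 each). The log2 fold change was −1.99 ± 0.48 (SE, 95% interval −3.12 to −0.87), with an unadjusted p of 0.00383 and an adjusted p of 0.551 by edgeR, which fails the correction over all genes. By DESeq2 the adjusted p of *Col6a3* was 0.0157, and by the other alternatives it ran between 0.259 and 0.840. On the deposited FPKM scale, which uses another library total, *Col6a3* was at 2.47, 5.11 and 1.92 FPKM in *Stk11* ec-/- libraries and at 12.2, 5.08 and 12.6 FPKM in WT libraries, so that the second libraries of the genotypes overlapped there.

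*Col6a1*, a shorter chain of the trimer, was at 13.3, 7.91 and 168 CPM in *Stk11* ec-/- libraries, against 130, 30.7 and 13.7 CPM in WT libraries. *Col6a2*, the other short chain, was at 2.34, 0.488 and 37.2 CPM in *Stk11* ec-/- libraries, against 50.3, 5.95 and 0.104 CPM in WT libraries. Both were thus high in *Stk11* ec-/- replicate 3 and WT replicate 1, and WT replicate 3, where *Col6a3* was at its highest, held only 4 reads of *Col6a2*. The log2 fold changes were 0.12 ± 1.24 for *Col6a1* (SE, adjusted p = 0.988) and −0.49 ± 1.86 for *Col6a2* (SE, adjusted p = 0.959). Together the 3 chains gave 47.2, 75.9 and 239 CPM in *Stk11* ec-/- libraries and 350, 131 and 278 CPM in WT libraries, and the groups overlapped.

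*Col12a1*, a fibril-associated collagen, was at 213, 250 and 293 CPM in *Stk11* ec-/- libraries, against 387, 244 and 1443 CPM in WT libraries. It was the steadiest member among *Stk11* ec-/- libraries, which lay within 1.37-fold of each other, and it was high in WT replicate 3. The log2 fold change was −1.46 ± 0.64 (SE, unadjusted p = 0.0558, adjusted p = 0.682 by edgeR) and was −0.32 without WT replicate 3. In *Stk11* ec-/- replicate 3, where *Col1a1*, *Col1a2* and *Col3a1* were at 2912 to 5609 CPM, neither *Col12a1* nor *Col6a3* was raised over the other *Stk11* ec-/- libraries by more than 1.37-fold.

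*Stk11* ec-/- replicate 3 moved the estimates of most members, and the sign of *Col3a1*, *Col5a3* and *Col6a1*. Without it, all 10 members were below 0, with log2 fold changes from −3.98 (*Col1a1*) to −0.14 (*Col5a3*) and a median of −2.06, where 50.1% of all genes were below 0. In that comparison 5 members were lower at an unadjusted p under 0.05 (*Col1a1*, *Col3a1*, *Col5a1*, *Col6a1* and *Col6a3*), beside 4.51% of 18197 genes, and 0 passed the adjusted threshold. With neither replicate 3 of *Stk11* ec-/- nor that of WT, 9 members were below 0 and 6 were lower at an unadjusted p under 0.05 (the same 5 and *Col6a2*), beside 5.48% of 17655 genes, again with 0 at an adjusted p under 0.05. Without *Stk11* ec-/- replicate 1 or replicate 2, 3 of 10 members were below 0 in each case. The leaving out of WT replicates 1, 2 and 3 put 6, 9 and 5 members below 0. *Col6a3*, *Col12a1* and *Col5a1* stayed below 0 whichever library was left out, although *Col5a1* was at −0.04 and −0.02 without *Stk11* ec-/- replicates 1 and 2 and at −1.89 without replicate 3, and *Col6a3* was at an unadjusted p under 0.05 each time. The plot of log2 fold changes sets the values with and without *Stk11* ec-/- replicate 3 side by side.

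**Figure D2:**
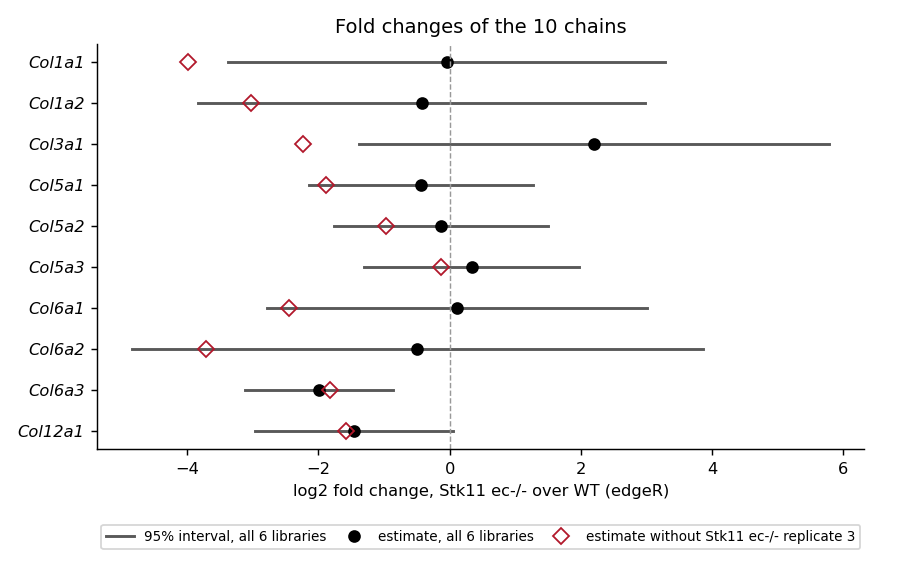
Log2 fold change of *Stk11* ec-/- over WT for each chain by edgeR. Points are estimates from all 6 libraries with their 95% intervals, and open diamonds are estimates without *Stk11* ec-/- replicate 3, which lie at −3.98 for *Col1a1* and −2.24 for *Col3a1* and near the full estimate for *Col6a3* and *Col12a1*.

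Compared per length, the makeup of the collagen transcripts differed between libraries. *Col1a1* was first by FPKM in 5 of 6 libraries, with 5.41%, 22.8% and 41.2% of the members' summed FPKM in *Stk11* ec-/- libraries and 47.6%, 45.6% and 39.5% in WT libraries. In *Stk11* ec-/- replicate 1 the leading chain was *Col5a2*, which had 40.2%, 20.4% and 6.21% of the sum in *Stk11* ec-/- libraries and 6.57%, 10.9% and 12.7% in WT libraries. *Col3a1* took 13.6%, 3.13% and 31.3% in *Stk11* ec-/- libraries and 9.87%, 10.1% and 3.92% in WT libraries. In *Stk11* ec-/- replicate 2, *Col1a1*, *Col5a2* and *Col1a2* stood close together, at 26.4, 23.5 and 21.5 FPKM. *Col5a3* and *Col6a2* were at or below 5.29 FPKM in every library of both genotypes. By mean FPKM the order *Col1a1*, *Col3a1*, *Col1a2*, *Col5a2* and *Col5a1* in *Stk11* ec-/- cells held differences between neighbours that were smaller than the larger SD of each pair. In WT cells *Col1a1*, at 188 ± 76.7 FPKM, was above *Col1a2*, at 63.9 ± 68.0 FPKM, by more than either SD (n = 3), and *Col5a1*, *Col5a2*, *Col3a1* and *Col12a1* followed at 51.0 to 29.3 FPKM with overlapping spreads.

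Chain ratios within a library do not depend on depth. *Col1a1* to *Col1a2* was 3.0, 1.23 and 3.70 in *Stk11* ec-/- libraries and 6.99, 6.22 and 1.6 in WT libraries, a spread of 5.70-fold over all libraries. *Col3a1* to *Col1a1* was 2.51, 0.137 and 0.761 in *Stk11* ec-/- libraries and 0.207, 0.222 and 0.0991 in WT libraries, with 2 *Stk11* ec-/- libraries above all WT libraries. *Col5a1* to *Col5a2* was 0.481, 0.704 and 1.04 in *Stk11* ec-/- libraries and 2.38, 1.5 and 0.541 in WT libraries, the narrowest spread of the 7 ratios at 4.96-fold. *Col6a2* to *Col6a1* was 0.0921, 0.0314 and 0.116 in *Stk11* ec-/- libraries and 0.203, 0.101 and 0.00377 in WT libraries, and *Col6a3* to *Col6a1* was 0.851, 3.07 and 0.0717 in *Stk11* ec-/- libraries and 0.469, 1.10 and 6.95 in WT libraries. These ratios spread over 53.9-fold and 96.9-fold, and over 6.47-fold and 42.9-fold without WT replicate 3, where *Col6a2* had 4 reads. The spread of *Col6a3* to *Col6a1* thus stayed above the 5.70-fold of *Col1a1* to *Col1a2* without that library, while that of *Col6a2* to *Col6a1* came near it. *Col12a1* to *Col1a1* was 2.49, 0.572 and 0.0256 in *Stk11* ec-/- libraries and 0.0940, 0.106 and 0.243 in WT libraries, and *Col5a3* to *Col5a1* was 0.0304, 0.122 and 0.0257 in *Stk11* ec-/- libraries and 0.0167, 0.0106 and 0.0379 in WT libraries.

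None of the 7 ratios passed a two-sided exact permutation test over the 6 libraries, for which 3 against 3 cannot go below p = 0.1. Exact p-values lay between 0.3 and 0.9, and adjusted over the 7 ratios they were 0.7 or 0.9. The mean log2 difference was 1.95 for *Col3a1* to *Col1a1* and −0.79 for *Col1a1* to *Col1a2*. The plot of chain ratios shows the overlap of the genotypes in each of them.

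**Figure D3:**
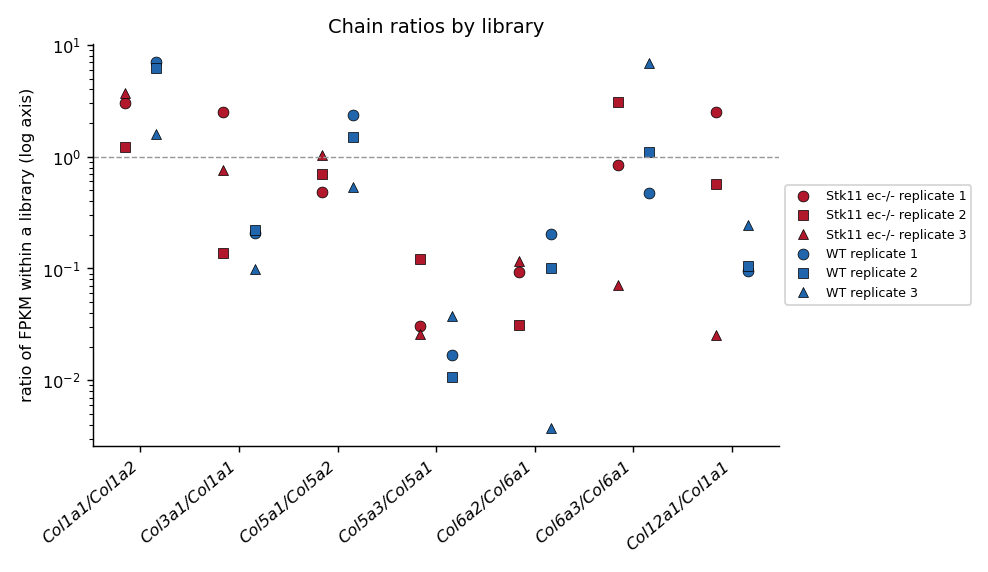
Ratio of FPKM of a pair of chains within each library (log axis) for 3 *Stk11* ec-/- (red) and 3 WT (blue) libraries. *Col6a3* to *Col6a1* ran between 0.0717 in *Stk11* ec-/- replicate 3 and 6.95 in WT replicate 3, while *Col5a1* to *Col5a2* stayed within 4.96-fold.

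Likeness of profiles was measured as the root mean square difference between log2 CPM values after each gene was centred over the 6 libraries. The closest pairs among the members were *Col6a3* and *Col12a1* (0.70), *Col5a2* and *Col12a1* (0.75) and *Col5a1* and *Col5a2* (0.82). The partners of collagen I, *Col1a1* and *Col1a2*, were 0.92 apart, and *Col6a1* and *Col6a2* were 0.998 apart. *Col6a2* was far from *Col1a2* (3.16), *Col12a1* (2.90) and *Col6a3* (2.88), so that the distance between *Col6a2* and its trimer partner *Col6a3* was near the widest of all pairs. The mean centred profile of the members was −1.69, −1.28 and 1.63 in *Stk11* ec-/- libraries and 0.89, −0.20 and 0.65 in WT libraries. Of 8344 other genes with a mean of at least 10 CPM, whose median distance from this profile was 1.27, the 5 nearest were *Plxnb1* (0.23), *Gm23444* (0.30), *Ssc5d* (0.38), *Adamts2* (0.39) and *Afap1l2* (0.40). *Adamts2*, the protease that removes the amino-terminal propeptide of fibrillar procollagens, was at 27.4, 27.2 and 288 CPM in *Stk11* ec-/- libraries and at 177, 139 and 197 CPM in WT libraries. *Adamts2* was chosen for this likeness, so its levels are a description.

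The genes that modify, fold, cut, cross-link and bind collagen were examined in 6 lists, and 0 genes of any list passed an adjusted p under 0.05 in either direction by edgeR, DESeq2 or limma, where edgeR called 0.046% of all genes higher and 0.0287% lower. Of 14 tested genes for prolyl and lysyl hydroxylation and glycosylation, 1 in each direction had an unadjusted p under 0.05. Of all genes, 4.36% were higher and 2.97% lower by that threshold. The median log2 fold change of the list was −0.04. *Colgalt1*, which adds galactose to hydroxylysine, was at 130.5, 110.4 and 84.5 CPM in *Stk11* ec-/- libraries, against 154.7, 184.6 and 289.7 CPM in WT libraries. It was lower in 3 of 3 *Stk11* ec-/- libraries, a pattern of 6.59% of all genes (log2 fold change −0.95 ± 0.33 SE, unadjusted p = 0.0216, adjusted p = 0.662 by edgeR). *P4ha3*, a catalytic subunit of prolyl 4-hydroxylase, was at 79.0, 27.3 and 179 CPM in *Stk11* ec-/- libraries, against 19.0, 28.8 and 36.8 CPM in WT libraries. On the log2 scale *P4ha3* differed by 1.75 ± 0.64 (SE, unadjusted p = 0.0281, adjusted p = 0.662 by edgeR), but the groups overlapped and the value was 0.92 without *Stk11* ec-/- replicate 3. *Plod2*, a lysyl hydroxylase, had a log2 fold change of 1.30 ± 0.62 (SE) with overlapping groups. *P3h2*, a prolyl 3-hydroxylase, was low, at 5.79, 1.26 and 0.405 CPM in *Stk11* ec-/- libraries, against 0.4973, 0.2015 and 1.145 CPM in WT libraries. Groups overlapped for *P3h2*, and its log2 fold change was 2.00 ± 1.10 (SE) and 0.43 without *Stk11* ec-/- replicate 1.

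Among 15 procollagen chaperone and export genes, 1 (*Creb3l2*) was higher at an unadjusted p under 0.05, beside 4.36% of all genes. The median log2 fold change over the list was −0.16. *Creb3l2*, a transcription factor of secretory pathway genes, was at 236, 297 and 301 CPM in *Stk11* ec-/- libraries, against 154, 135 and 213 CPM in WT libraries (log2 fold change 0.73 ± 0.28 SE, unadjusted p = 0.0321, adjusted p = 0.662 by edgeR). It was higher in 3 of 3 *Stk11* ec-/- libraries, a pattern of 7.69% of all genes. *Serpinh1*, which encodes the collagen chaperone Hsp47, was at 97.7, 206 and 276 CPM in *Stk11* ec-/- libraries, against 632, 258 and 328 CPM in WT libraries. Its *Stk11* ec-/- replicate 3 lay above WT replicate 2, and the log2 fold change was −1.07 ± 0.49 (SE, unadjusted p = 0.0618, adjusted p = 0.682). *Sec23a*, a coat protein of the vesicles that leave the endoplasmic reticulum, and *Fkbp14*, a procollagen prolyl isomerase, had log2 fold changes of 0.50 ± 0.29 and 0.37 ± 0.25 (SE).

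The other 4 lists held 0 genes at an unadjusted p under 0.05, where 4.36% of all genes were higher and 2.97% lower. For 12 genes of propeptide removal and cross-linking the median was −0.40, with *Loxl2* (a lysyl oxidase homolog) at −0.59 ± 0.57, *Pcolce* (an enhancer of procollagen C-proteinase) at −0.79 ± 0.79, *Adamts3* (a procollagen N-proteinase) at 1.35 ± 1.40 and *Bmp1* (the C-proteinase) at −0.44 ± 0.47 as log2 fold changes with their SE. *Adamts3* was low, at 0.401, 0.128 and 7.18 CPM in *Stk11* ec-/- libraries and 1.76, 0.974 and 0.312 CPM in WT libraries. For 11 collagen receptors the median was 0.11. *Antxr2*, a receptor of collagen VI, was at 0.68 ± 0.34, higher in *Stk11* ec-/- without overlap, a pattern of 7.69% of all genes. The integrin subunits *Itgb1*, *Itga10* and *Itga1* were at 0.77 ± 0.41, 0.58 ± 0.37 and 0.69 ± 0.46. Of the other fibrillar and fibril-associated collagens, 10 of 17 passed the filter on low counts, with a median of 0.16. *Col22a1*, *Col20a1*, *Col11a2* and *Col16a1* had log2 fold changes of 1.02 ± 1.32, −0.15 ± 0.26, 0.45 ± 0.89 and 0.37 ± 0.77 (SE). *Col22a1* was near the floor, at 0 to 0.77 CPM over all libraries. For 16 genes of TGF-beta signaling, a main inducer of collagen genes, the median was −0.11. *Ltbp1*, which anchors latent TGF-beta in the matrix, *Tgfb2*, a ligand, *Tgfbr3*, a co-receptor, and *Smad7*, an inhibitor, had log2 fold changes of −1.17 ± 0.66, 0.56 ± 0.35, 0.73 ± 0.49 and −0.39 ± 0.32 (SE). Without *Stk11* ec-/- replicate 3 the sign turned for *Adamts3* (−1.91), *Col16a1* (−1.09), *Itga1* (−0.02) and *Tgfbr3* (−0.0076). It also turned for *Bmp1* without WT replicate 3 (0.11) and for *Col11a2* without *Stk11* ec-/- replicate 2 (−0.10) or WT replicate 2 (−0.04).

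**Figure D4:**
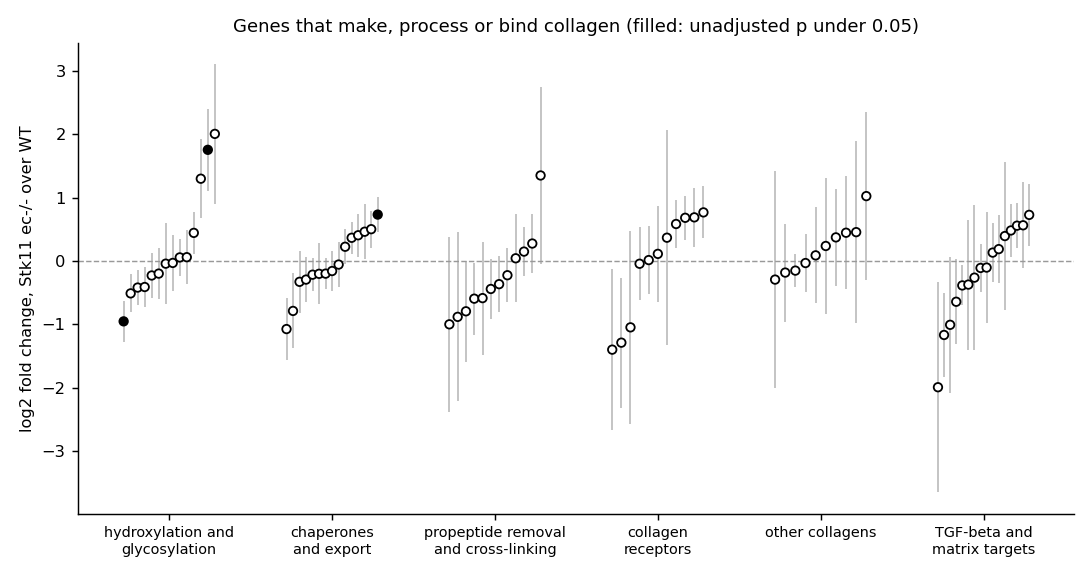
Log2 fold change of *Stk11* ec-/- over WT with its SE for the tested genes of 6 lists, each sorted by value. Filled points are at an unadjusted p under 0.05 (*Colgalt1*, *P4ha3* and *Creb3l2*), and list medians lie between −0.40 and 0.16.

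Markers of other cell types and of ECs also differed between libraries. The 11 pericyte and smooth muscle markers summed to 1012, 1154 and 4738 CPM in *Stk11* ec-/- libraries, against 1014, 463 and 9734 CPM in WT libraries. Their 2 highest libraries, replicate 3 of either genotype, were the 2 highest in members' CPM. *Acta2* was the most abundant of them in every library, at 216 CPM in WT replicate 2 and 479 CPM in WT replicate 1 and more elsewhere. *Rgs5*, *Kcnj8* and *Abcc9* were at 0 or under 1 CPM in 5 of 6 libraries each. Other pericyte markers were detected throughout. *Pdgfrb* was at 59.4, 52.7 and 481 CPM in *Stk11* ec-/- libraries and 268, 88.5 and 780 CPM in WT libraries. *Cspg4* was at 5.48, 1.44 and 29.4 CPM in *Stk11* ec-/- libraries and 34.4, 10.1 and 44.1 CPM in WT libraries. *Notch3* was at 73.0, 25.8 and 131 CPM in *Stk11* ec-/- libraries and 177, 116 and 62.7 CPM in WT libraries. It was thus lowest of the WT libraries in replicate 3, where the sum was highest. The 16 fibroblast markers summed to 234, 396 and 793 CPM in *Stk11* ec-/- libraries and 378, 184 and 383 CPM in WT libraries. Of them *Dpt* was at 0 in all 6 libraries and *Tcf21* and *Fap* were under 1 CPM in all 6. Markers of the list differed in profile. *Cd248* was at 11.8, 12.5 and 116 CPM in *Stk11* ec-/- libraries and 60.3, 12.1 and 82.2 CPM in WT libraries. *Mfap5* was at 1.8, 4.54 and 19.2 CPM in *Stk11* ec-/- libraries and 2.67, 6.08 and 25.5 CPM in WT libraries. Both were thus highest in replicate 3 within either genotype. *Thy1* was at 43.1, 182 and 6.05 CPM in *Stk11* ec-/- libraries and 18.4, 2.69 and 16.8 CPM in WT libraries. *Pdpn* was at 71.3, 154 and 195 CPM in *Stk11* ec-/- and 31.8, 7.12 and 53.3 CPM in WT libraries. *Prrx1* was at 27.5, 12.6 and 84.5 CPM in *Stk11* ec-/- and 113, 82.9 and 65.8 CPM in WT libraries. *Dcn* was at 52.9, 11.5 and 275 CPM in *Stk11* ec-/- libraries and 55.1, 33.6 and 15.8 CPM in WT libraries, and *Pdgfra* at 6.02, 12.5 and 57.7 CPM in *Stk11* ec-/- libraries and 50.6, 6.62 and 106 CPM in WT libraries.

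The 15 EC markers summed to 1669, 3216 and 388 CPM in *Stk11* ec-/- libraries, against 1052, 682 and 456 CPM in WT libraries. The sum was lowest in replicate 3 of either genotype, as were the abundant *Cdh5* (37.5 and 101 CPM there) and *Eng* (97.5 and 134 CPM). Not all markers followed the sum. *Kdr* was at 12.6, 238 and 27.9 CPM in *Stk11* ec-/- and 4.11, 2.08 and 16.8 CPM in WT libraries. *Flt1* was highest of the *Stk11* ec-/- libraries in replicate 3, at 76.7 CPM. Like *Kdr*, the markers *Tie1*, *Egfl7*, *Erg*, *Robo4* and *Cldn5* were highest of the WT libraries in replicate 3. So was *Ramp2*, by a small margin (21.1, 24.5 and 25.5 CPM in WT libraries). All 15 were detected, but *Cldn5* was at 0 in WT replicate 1 and *Robo4* at 0 in WT replicate 2. *Pecam1* was at 132, 424 and 35.3 CPM in *Stk11* ec-/- libraries and 96.2, 27.4 and 29.3 CPM in WT libraries. The 8 mesothelial markers summed to 486, 136 and 973 CPM in *Stk11* ec-/- and 620, 1845 and 122 CPM in WT libraries. *Msln* was the most abundant of them except in *Stk11* ec-/- replicate 3, where *Upk1b* was at 430 CPM, against at most 77.1 CPM in any other library, *Upk3b* at 191 CPM, against at most 2.55 CPM, and *Wt1* at 58.4 CPM, against at most 2.08 CPM. These 3 mesothelial markers thus peaked in the library with the highest members' sum, as did *Lrrn4* at 3.01 CPM. The rest of the list did not. In that library *Krt19* was at its lowest, 7.38 CPM, and *Krt8* was at 0. *Msln* was at 279 CPM there, against 1650 CPM in WT replicate 2. *Muc16* was at 4.54 CPM there and at 4.95 CPM in *Stk11* ec-/- replicate 2. The 6 marrow reticular markers summed to 170, 146 and 77.8 CPM in *Stk11* ec-/- and 412, 233 and 72.3 CPM in WT libraries. *Cxcl12* led them except in replicate 3 of either genotype, at 102, 65.9 and 24.2 CPM in *Stk11* ec-/- and 356, 203 and 22.1 CPM in WT libraries. *Kitl* was at 40.4, 46.6 and 49.2 CPM in *Stk11* ec-/- and 26.2, 21.6 and 37.4 CPM in WT libraries. It was higher in *Stk11* ec-/- without overlap, a pattern of 7.69% of all genes. *Adipoq* was under 1 CPM in all 6 libraries. The 10 osteoblast and osteocyte markers summed to 10.1 to 11.4 CPM in *Stk11* ec-/- and 11.8 to 17.2 CPM in WT libraries. Nearly all of this was *Runx2*, at 9.36 to 10.9 CPM in *Stk11* ec-/- and 11.4 to 17.2 CPM in WT libraries. The rest of that list was under 1 CPM in all 6 libraries, with *Bglap*, *Bglap3*, *Ibsp*, *Sp7* and *Mepe* at 0. The 10 haematopoietic markers, mostly *Cd68* and *Csf1r*, summed to 9.68 to 18.0 CPM in *Stk11* ec-/- and 13.0 to 36.8 CPM in WT libraries. The part of these marker differences in the collagen levels was not tested.

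**Figure D5:**
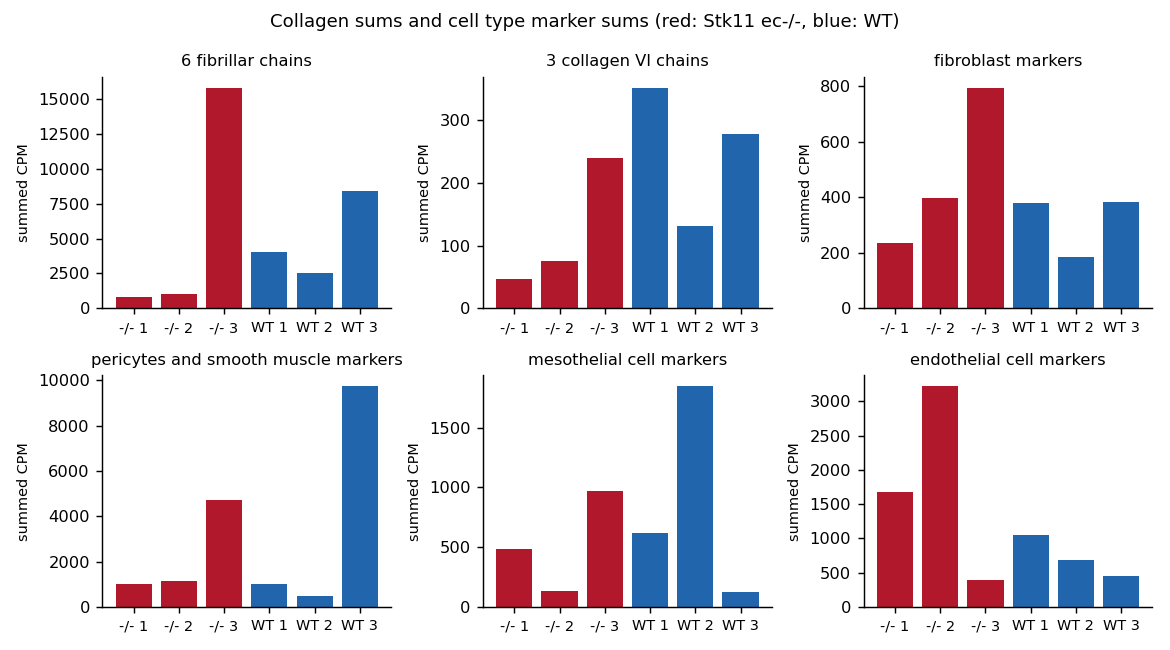
Summed CPM by library of the 6 fibrillar chains, the 3 collagen VI chains and 4 marker lists, with *Stk11* ec-/- (red) left of WT (blue). *Stk11* ec-/- replicate 3 has 15750 CPM of fibrillar chains, 4738 CPM of pericyte and smooth muscle markers and 388 CPM of EC markers.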

How the data were processed

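RNA of 3 *Stk11* ec-/- and 3 WT EC libraries was analysed, grouped by the labels. The authors deposited 1 table with a whole-number read count and an FPKM value (scaled to transcript length and library size) for each locus and library. HISAT2 and StringTie on GRCm38 are given in the methods, but BWA, TopHat, Cufflinks and mm9 in the submitters' processing notes. Positions matched GRCm38. Of 91725 loci, 53530 with an Ensembl transcript were used, which held 86.2% to 94.8% of counts. Loci with no gene name (9721) held 0.359% to 0.887% and were left out.

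Counts were tested with edgeR 4.0.16 (R 4.3.3), using TMM scaling, filterByExpr defaults and a quasi-likelihood F test on genotype alone. The filter removed 36134 loci and left 17396. All 10 members passed, and those high in 1 group only could pass through it. The common biological coefficient of variation was 0.628. Benjamini-Hochberg adjustment ran over all tested genes, with a threshold of 0.05. Levels are CPM, and levels of different genes were compared by FPKM. Chain ratios were tested by exact permutation. Sums, shares and distances (log2 of CPM + 0.5) carry no test. No 2 libraries of a group agreed within sampling noise.

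Alternatives were no filter, a mean FPKM of at least 5, DESeq2 size factors, DESeq2 1.42.0, limma 3.58.1 on log2(FPKM + 1) and log2(FPKM + 0.1), the replicate number as a block, libraries left out, no genes of chromosomes X and Y, rows of a symbol summed, ratios of counts, sums of FPKM and CPM without TMM. Named genes are the members, up to 4 genes of each list by smallest p and the 5 genes nearest the members' profile. Members and gene lists were chosen with earlier results of these data known. Steps were tested on simulated data. Python 3.11.15 was used for tables and figures.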

Additional observations from a re-analysis of the deposited data

How the results depend on the processing

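The count of members higher at an adjusted p under 0.05 was 0 under every alternative, and the count lower was 0 except for DESeq2, which gave 1 (*Col6a3*, 0 higher). The 6 pathway lists held 0 called genes under DESeq2, limma on log2(FPKM + 1), the replicate block and each left-out replicate. The next tally takes the alternatives other than leaving out 1 replicate, and includes the fit with neither replicate 3. In it 86 of 98 member fold changes kept their sign and side of the threshold, 11 changed sign and 1 became called. *Col1a1* was at 0.0199 with a mean FPKM of at least 5, a setting that left out *Col5a3* and *Col6a2*. Limma on log2(FPKM + 1) and on log2(FPKM + 0.1) gave −0.0082 and −0.098 for *Col3a1*, 0.13 and 0.13 for *Col5a2* and −0.19 and −0.24 for *Col6a1*, and −1.96 and −2.05 for *Col1a1* and −1.08 and −1.25 for *Col1a2*, which kept their sign but moved further from 0. These FPKM fits moved the median of all genes up, to 0.14 and 0.29, against 0.02 in the edgeR fit. *Col1a1*, *Col1a2*, *Col3a1* and *Col6a1* moved down in them, and *Col5a2* moved up. The first of these fits gave 1101 higher and 266 lower genes by unadjusted p, where edgeR gave 758 and 517. With neither replicate 3, *Col3a1* was at −2.31 and *Col6a1* at −2.92. The cause of these changes was not tested.

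With 1 replicate left out, 42 of 60 member values kept their sign, 18 changed it and 0 were called. The log2 fold changes ran between −3.98 and 0.54 for *Col1a1*, −3.02 and 1.27 for *Col1a2*, −2.24 and 2.79 for *Col3a1*, −1.89 and −0.02 for *Col5a1*, −0.97 and 0.72 for *Col5a2*, −0.14 and 0.92 for *Col5a3*, −2.45 and 1.52 for *Col6a1* and −3.71 and 2.16 for *Col6a2*. Log2 differences ran between −1.05 and 1.83 for *Col6a2* to *Col6a1*, −2.63 and 0.0778 for *Col6a3* to *Col6a1* and −0.15 and 3.15 for *Col12a1* to *Col1a1*. The log2 ratio of group mean sums ran between −2.28 and 0.69 for the 10 members and between −2.43 and 0.83 for the 6 fibrillar chains, lowest without *Stk11* ec-/- replicate 3.

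Same-numbered libraries of the genotypes did not deviate together (r = 0.261, −0.236 and 0.042 over genes), so the numbers were not taken as pairs. With the replicate number as a block, 0 members were higher and 0 lower, 9 of 10 were below 0 with a median of −1.06 (7 and −0.28 without the block), *Col3a1* was at −1.03, *Col6a1* at −1.09, *Col1a1* at −2.37, *Col1a2* at −1.35, *Col5a1* at −1.03 and *Col6a2* at −2.32, and the exact p-values of the chain ratios were 0.5 to 1.0. With 3 libraries a group and within-group ranges of up to 483-fold (*Col6a2* in WT), intervals of most members span several log2 units and a missing call does not show equal levels. *Col6a2* rests on 4 reads in WT replicate 3.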

Other observations

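Of the loci that carry a member's symbol but no Ensembl transcript, 7 were examined. A locus on the strand opposite *Col5a2* (chromosome 1, 45493229 to 45498435) was at 8.63, 5.36 and 13.8 CPM in *Stk11* ec-/- libraries and 2.80, 4.23 and 6.84 CPM in WT libraries. The groups overlapped (two-sided exact permutation p = 0.2, n = 3 each). Summed over the 6 libraries, such loci held at most 2.03% of the counts under a member's symbol, for *Col5a3*. In single libraries the 2 loci named *Col6a2* came to 7.46% and 11.9% of the 134 counts of that member in *Stk11* ec-/- replicate 1.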
